A study of Mus musculus with 6 samples.

Results

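The genes described here encode the subunits of the transcription factor AP-1 and related immediate early factors: the Fos family (Fos, Fosb, Fosl1, Fosl2), the Jun family (Jun, Junb, Jund), Atf3, Egr1 and Ier3. They were chosen by gene symbol, 10 genes of the 24054 rows of a count table from mouse salivary gland, and all 10 were found. The study compared monogenic control mice with K5-rtTA:TetO-RANKL mice (K5-RANKL below). In the bigenic mice the keratin 5 promoter drives a doxycycline-dependent activator, rtTA, in basal epithelium, and the activator switches on a transgene for RANKL, a TNF family cytokine. Mice of both genotypes were given doxycycline by food and drinking water for 2 weeks, starting at the age of 9 weeks. Each group had 3 libraries, each from the pooled salivary glands of 5 mice, so the p-values measure the spread between pools. The sources used here do not say which transgene the controls carried, nor the strain, the sex or which salivary glands were taken.

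AP-1 is a dimer of basic leucine zipper proteins, usually 1 Fos and 1 Jun protein, or a Jun protein with an ATF protein. Several of its genes, among them Fos and Jun, are immediate early genes. Such genes are transcribed within minutes of a signal through MAP kinases and need no new protein synthesis. RANK, the receptor of RANKL, activates NF-kB and the kinases that act on AP-1, and Fos is required for the formation of osteoclasts, the bone-resorbing cells that RANKL induces.

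The control libraries held 13875951 to 17921815 counts and the K5-RANKL libraries 14149734 to 16412579. Tnfsf11, which encodes RANKL, lay between 404.5 and 722.8 CPM in K5-RANKL and reached 3.78 CPM at most in controls. CPM relate a gene's count to its library's size, here after scaling by trimmed mean of M values (TMM). The scaling matters, because the 20 most abundant genes took 64.9 to 67.3% of all counts in controls but 32.0 to 39.1% in K5-RANKL. The median gene had a log2 fold change of 0.01 by TMM and of 1.01 when libraries were scaled by their totals. Fold changes below are on the TMM scale, and genes with a fold change given are named where it changes direction by totals. Cell type markers were followed by totals only as lists.

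AP-1 members divided into 3 with large rises, 3 with smaller rises and 4 that were not called or not tested. Of the 10 members, 6 were higher in K5-RANKL, 0 were lower, 3 were tested and not called, and Fosl1 had too few counts to test (edgeR, adjusted p under 0.05). For comparison, 66.2% of the 14044 genes tested were called, 34.2% higher and 32.1% lower. Fosl2, Junb and Atf3 rose by 2.07, 1.97 and 1.82 on the log2 scale, and Fos, Ier3 and Jun by 0.78, 0.67 and 0.24. The count of 0 lower members was also 0 at an unadjusted p under 0.05 and with limma voom. With DESeq2 it was 1, Egr1. The groups did not overlap in CPM for the same 6 members, against 36.3% of tested genes that were higher without overlap. By library totals all 9 tested members were called higher, as were 83.5% of tested genes, while 4.97% were lower.

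**Figure D1:**
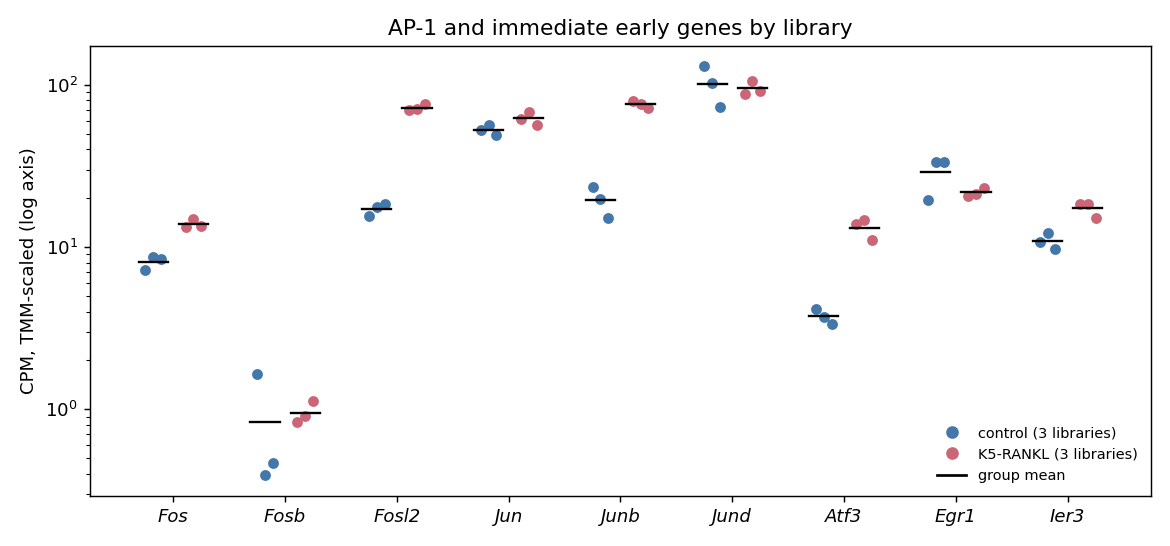
TMM-scaled CPM (y axis, logarithmic) of the 9 tested members; each point is 1 library, 3 per group, and each line is a group mean. Fosl2, Junb and Atf3 show the widest gaps between groups, and Fosb, Jund and Egr1 have overlapping groups.

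Of the 3 tested Fos genes, Fosl2 and Fos were called higher, and Fosl2 rose more. It encodes FRA-2, a Fos protein without the strong transactivation domain of FOS. Fosl2 (Entrez 14284, chromosome 5 from 32135801 to 32157842 in GRCm38) stood at 15.5, 17.6 and 18.5 CPM in controls 1, 2 and 3. In K5-RANKL 1, 2 and 3 it stood at 69.8, 71.0 and 75.8 CPM. The groups lay far apart and the libraries of each were close. The means were 17.2 ± 1.53 and 72.2 ± 3.16 CPM (SD, n = 3 each), a 4.199-fold rise (log2 2.07, SE 0.09, edgeR adjusted p = 1.86e-12). Its log2 fold change was above that of 93.8% of tested genes. For the other members called higher this share was 93.1% (Junb), 92.0% (Atf3), 78.9% (Fos), 76.7% (Ier3) and 62.95% (Jun).

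Fos, the founding member and the viral oncogene homolog (Entrez 14281, chromosome 12 from 85473890 to 85477273), rose less. It stood at 7.18, 8.73 and 8.44 CPM in controls and at 13.3, 15.0 and 13.5 CPM in K5-RANKL. Every K5-RANKL library was above every control. Fos rose 1.71-fold (log2 0.78, SE 0.12, edgeR adjusted p = 1.80e-05), from 8.12 ± 0.823 to 13.93 ± 0.911 CPM (SD, n = 3 each).

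Fosb, a Fos protein known for its stable splice form in the brain (Entrez 14282, chromosome 7 from 19302696 to 19310051), was near the floor of detection. It had 18, 4 and 6 counts in controls and 20, 17 and 24 in K5-RANKL, which is 1.66, 0.392 and 0.469 CPM and 0.829, 0.909 and 1.12 CPM. Control 1 was above all K5-RANKL libraries, and the other controls were below them. Fosb was not called (log2 0.19, SE 0.43, edgeR adjusted p = 0.71). Without control 1 it was called higher (log2 1.11, edgeR adjusted p = 0.0403), with adjusted p between 0.00886 and 0.924 over all alternatives. Fosl1, encoding FRA-1 (Entrez 14283, chromosome 19 from 5447547 to 5455946), had 1 count in control 2, 1 in K5-RANKL 1 and 0 elsewhere. The libraries with 0 counts could have held up to 0.276 CPM (control 1), 0.235 (control 3), 0.16 (K5-RANKL 2) and 0.14 (K5-RANKL 3), from 3 counts. Such a limit covers counting error only. Ccdc85b, on the opposite strand, overlaps Fosl1 by 2767 bases, with means of 13.5 CPM in controls and 6.81 in K5-RANKL. The strand setting of the counting is not given in the sources used here, so how reads of the shared stretch were counted is unknown.

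Of the 10 members, 8 had an entry in the RefSeq table of gene starts (GRCm38.p6); Fosl1 and Egr1 were not among them. The 250 bases before the start are shown for the 3 members with the largest rise, so that their letters can be compared. Those of Fos, which rose less, are shown beside them. Capitals mark matches, on either strand, to any of 7 motifs. These were the AP-1 site TGAGTCA, the cyclic AMP response element (CRE) TGACGTCA, its core TGACG, the EGR site GCGGGGGCG, the TATA box TATAAA, the CArG box bound by SRF, and the NF-kB site. The last pair were searched by their usual consensus, and the CRE core lies inside the CRE. The regions are chr5:32136222-32136471 (plus strand) for Fosl2, chr8:84978749-84978998 (minus) for Junb, chr1:191183334-191183583 (minus) for Atf3 and chr12:85473640-85473889 (plus) for Fos.
Fosl2: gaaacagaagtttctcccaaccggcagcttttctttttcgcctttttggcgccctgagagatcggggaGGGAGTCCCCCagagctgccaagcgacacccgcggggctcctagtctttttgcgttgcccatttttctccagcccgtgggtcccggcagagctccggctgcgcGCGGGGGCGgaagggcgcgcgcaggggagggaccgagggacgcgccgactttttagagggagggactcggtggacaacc
Junb: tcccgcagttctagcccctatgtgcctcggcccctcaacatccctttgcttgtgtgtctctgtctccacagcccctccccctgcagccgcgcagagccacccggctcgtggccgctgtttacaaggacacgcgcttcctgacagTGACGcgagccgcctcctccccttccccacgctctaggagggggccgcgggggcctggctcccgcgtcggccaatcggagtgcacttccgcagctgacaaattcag
Atf3: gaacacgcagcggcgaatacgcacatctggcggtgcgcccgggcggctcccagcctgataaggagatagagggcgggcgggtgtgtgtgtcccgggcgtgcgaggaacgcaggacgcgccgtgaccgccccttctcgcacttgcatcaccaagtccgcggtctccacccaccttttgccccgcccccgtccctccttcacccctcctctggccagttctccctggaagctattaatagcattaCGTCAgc
Fos: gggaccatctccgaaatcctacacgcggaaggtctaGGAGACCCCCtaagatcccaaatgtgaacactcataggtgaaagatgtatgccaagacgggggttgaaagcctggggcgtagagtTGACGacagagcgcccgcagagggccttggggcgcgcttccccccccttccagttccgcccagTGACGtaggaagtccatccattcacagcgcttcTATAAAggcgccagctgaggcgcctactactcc

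In these windows the CRE core was found in Junb, Atf3, Fos and Fosb, 4 of the 8 members, against 17.8% of all 32841 promoters of that length. In Fos it lay at bases −66 to −62 and −129 to −125 from the start, in Junb at −106 to −102 and in Atf3 at −7 to −3. The NF-kB consensus was found in Fosl2, Fos, Fosb and Ier3, 4 of the 8, against 7.25% of promoters. In Fosl2 its overlapping matches covered bases −182 to −172. The EGR site was found in Fosl2 and Fosb (2.57% of promoters) and the TATA box in Fos (12.4%). No window of the 8 held the AP-1 site (4.46% of promoters), the full CRE (1.55%) or the CArG box (1.47%) in these letters. Bases outside the windows were not searched, so these genes may hold such sites elsewhere. A match describes the letters and is no evidence of binding. The windows precede the RefSeq start, which can differ from that of the GENCODE gene. The RefSeq start of Atf3 lies 34706 bases and that of Fosl2 671 bases inside the GENCODE gene, so both windows lie within it and another start exists outside them. The RefSeq start of Jund lies 1210 bases before its GENCODE gene, and those of the other 5 lie 0 to 30 bases from theirs.

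The Jun family gave 3 different results. Junb, a Jun protein that often restrains growth (Entrez 16477, chromosome 8 from 84974484 to 84978718), stood at 23.6, 19.8 and 15.1 CPM in controls. It stood at 79.3, 76.1 and 71.6 CPM in K5-RANKL. The lowest K5-RANKL library was above every control, although the controls were spread. Junb rose 3.91-fold (log2 1.97, SE 0.12, edgeR adjusted p = 7.01e-09), from 19.5 ± 4.25 to 75.7 ± 3.89 CPM (SD, n = 3 each). Prdx2, a peroxiredoxin gene on the opposite strand, overlaps Junb by 351 bases, with the same unknown strand setting. The mean of Prdx2 was 114.6 CPM in controls, against 94.7 in K5-RANKL.

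Jun (Entrez 16476, chromosome 4 from 95049034 to 95052222), the transactivating partner of Fos, stood at 52.5, 56.3 and 48.7 CPM in controls and at 61.9, 68.1 and 56.4 CPM in K5-RANKL. The highest control and the lowest K5-RANKL library almost met. Jun rose 1.18-fold (log2 0.24, SE 0.09, edgeR adjusted p = 0.0182). The call was lost without control 3 (log2 0.19, edgeR adjusted p = 0.0995) or K5-RANKL 2 (log2 0.17, edgeR adjusted p = 0.0997), with adjusted p between 2.06e-11 and 0.0997 over all alternatives.

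Jund, the Jun protein present in resting cells (Entrez 16478, chromosome 8 from 70698949 to 70700616), stood at 129.8, 102.5 and 73.0 CPM in controls and at 88.2, 105.7 and 91.3 CPM in K5-RANKL. The controls spread wider than the K5-RANKL libraries and enclosed them. Jund was not called (log2 −0.10, SE 0.22, edgeR adjusted p = 0.727). Without control 3 it was called lower (log2 −0.29, edgeR adjusted p = 0.0312), and by library totals it was called higher (log2 0.90). All its alternatives gave adjusted p between 0.000366 and 0.908.

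**Figure D2:**
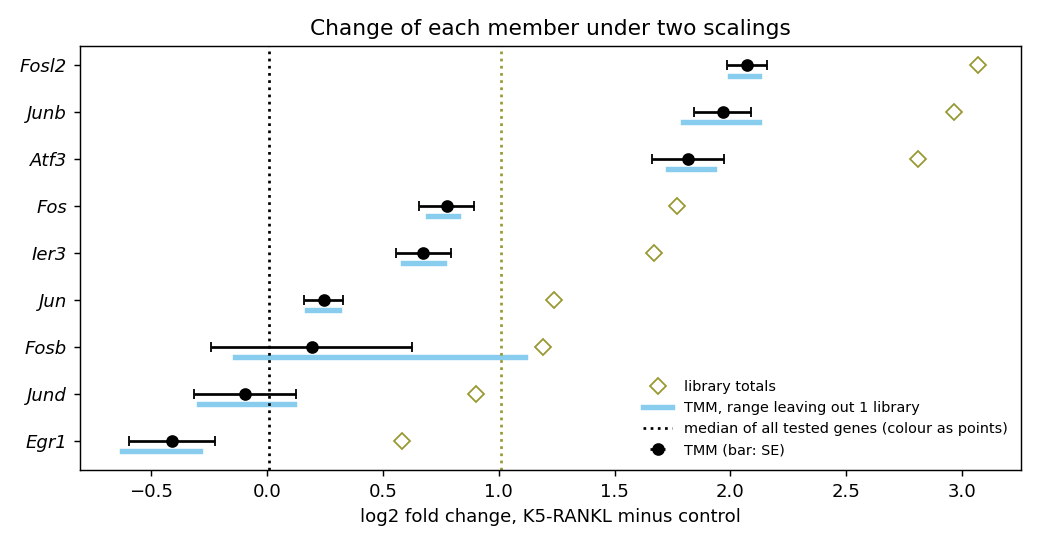
Log2 fold change of the 9 tested members (x axis), K5-RANKL minus control: black points with SE for TMM scaling, pale bars for the range when 1 library is left out, open diamonds for library totals, and dotted lines for the median of all tested genes under each scaling. Fosl2, Junb and Atf3 sit at 1.82 to 2.07 by TMM and at 2.81 to 3.07 by library totals; Jund and Egr1 sit below 0 by TMM and above 0 by library totals.

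Ratios within a library do not depend on the scaling between libraries, and they showed a shift in the makeup of both families. For each Fos count the controls held 2.15, 2.01 and 2.19 counts of Fosl2, and the K5-RANKL libraries 5.26, 4.75 and 5.60. For each Jund count they held 0.182, 0.193 and 0.207 counts of Junb in controls and 0.899, 0.720 and 0.785 in K5-RANKL. The groups were apart for both ratios, whose means were 2.46-fold and 4.13-fold higher in K5-RANKL.

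**Figure D3:**
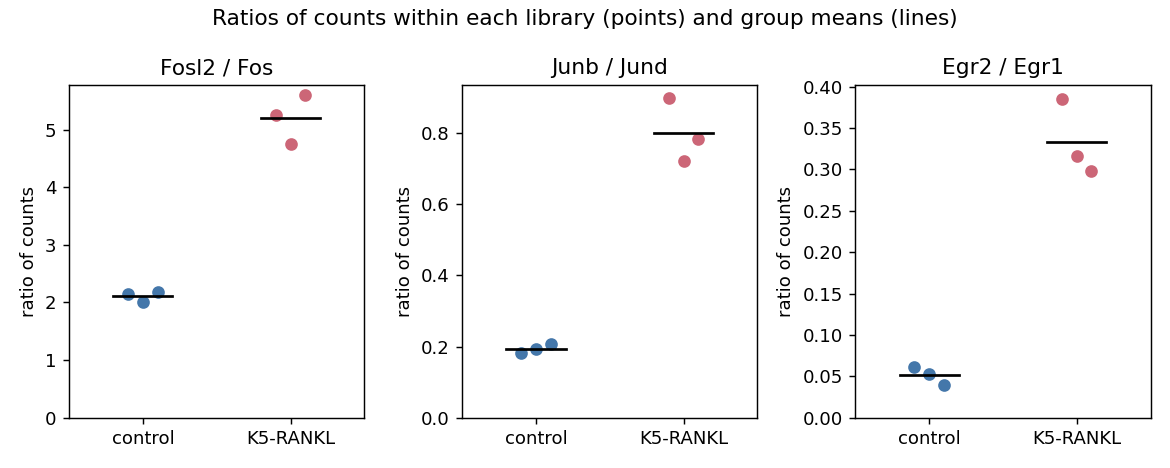
Ratio of the counts of a gene to those of another in the same library, for Fosl2 to Fos, Junb to Jund and Egr2 to Egr1; points are libraries and lines are group means. The K5-RANKL libraries lie above the controls in each panel.

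Counts per kilobase of exon (GENCODE vM21) allow members to be compared with each other. Fosl2 took 38.1, 38.5 and 40.6% of the summed Fos family in controls and 62.0, 59.7 and 63.3% in K5-RANKL, a mean rise of 22.6 percentage points. Fos took 57.3% ± 2.25 and 36.9% ± 1.97 (SD, n = 3 each). Per kilobase, the leading Fos gene was Fos in every control and Fosl2 in every K5-RANKL library. This change of leader rests on dividing by exon length, which is 6537 bases for Fosl2 and 2108 for Fos. In raw counts Fosl2 led in every library, with 63.6 to 67.4% in controls and 81.7 to 83.8% in K5-RANKL, against 29.5 to 32.6% and 15.0 to 17.2% for Fos. The share of Fosb was 3.44% ± 3.13 and 1.40% ± 0.184, and that of Fosl1 at most 0.754%.

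Junb took 12.1, 12.2 and 12.4% of the Jun family in controls and 37.8, 33.2 and 35.4% in K5-RANKL, a mean rise of 23.2 percentage points. Jund took 68.6% ± 3.79 and 48.1% ± 2.31 and led the family in every library. Jun took 19.2% ± 3.68 and 16.4% ± 0.575. For the shares of Fosl2, Fos, Junb and Jund the groups did not overlap, and a two-sided exact permutation test gave p = 0.1, the smallest that 3 against 3 libraries allow. For Fosb, Fosl1 and Jun it gave exact p = 0.2, 1 and 0.4. These 7 shares are not independent, since those of a family sum to the whole. No share can pass 0.05 in this design, adjusted or not.

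**Figure D4:**
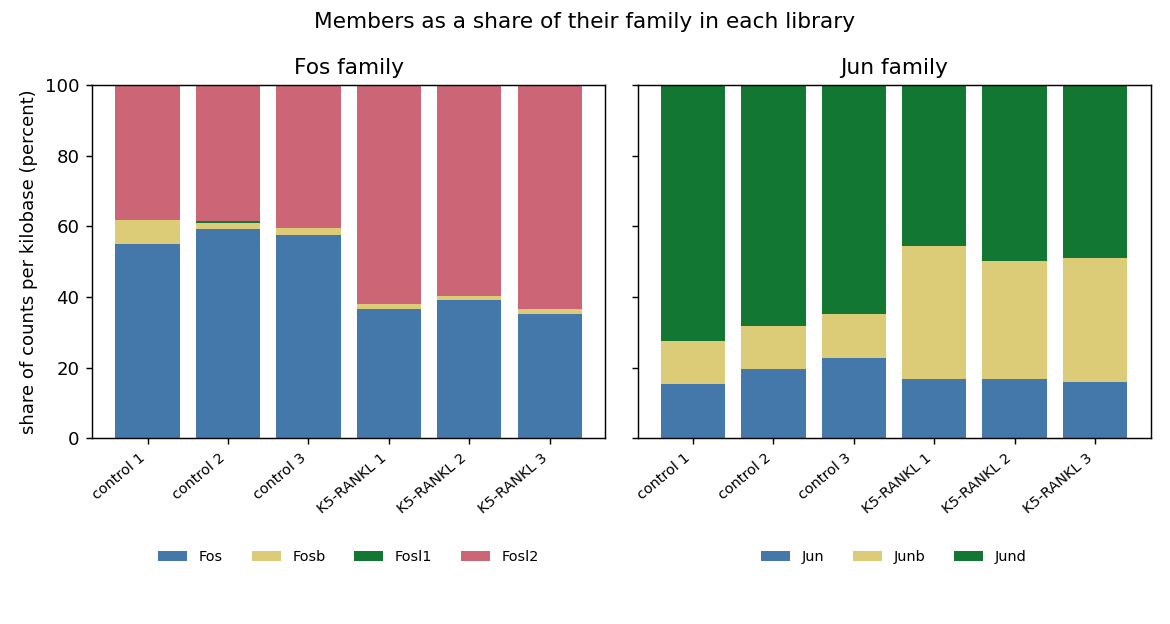
Share of counts per kilobase (percent, y axis) that each gene takes of the Fos family (left) and of the Jun family (right), 1 bar per library. Fosl2 takes 38.1 to 40.6% of the Fos family in controls and 59.7 to 63.3% in K5-RANKL, and Junb 12.1 to 12.4% and 33.2 to 37.8% of the Jun family.

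Summed per kilobase on the TMM scale, the Fos family stood at 6.72 ± 0.436 CPM per kilobase in controls and 17.91 ± 0.608 in K5-RANKL (SD, n = 3 each). The Jun family stood at 88.3 ± 20.01 and 118.3 ± 7.65, and its lowest K5-RANKL library, at 112.0, was above the highest control, at 107.3. In both groups Jun transcripts outnumbered Fos transcripts.

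Atf3, a stress-induced ATF protein that pairs with Jun proteins (Entrez 11910, chromosome 1 from 191170296 to 191218039), stood at 4.14, 3.73 and 3.36 CPM in controls. It stood at 13.8, 14.6 and 11.03 CPM in K5-RANKL. No libraries of the groups came near each other. Atf3 rose 3.52-fold (log2 1.82, SE 0.16, edgeR adjusted p = 1.60e-08). Ier3, an immediate early gene and NF-kB target linked to cell survival (Entrez 15937, chromosome 17 from 35821684 to 35822923), stood at 10.7, 12.3 and 9.69 CPM in controls and at 18.3, 18.4 and 15.1 CPM in K5-RANKL. The groups were again apart, by less. Ier3 rose 1.60-fold (log2 0.67, SE 0.12, edgeR adjusted p = 8.39e-05).

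Egr1, a zinc finger factor induced by MAP kinase signalling through SRF (Entrez 13653, chromosome 18 from 34859823 to 34864984), stood at 19.6, 33.6 and 33.3 CPM in controls. In K5-RANKL it stood at 20.7, 21.3 and 23.1 CPM. Control 1 lay just under the K5-RANKL libraries and the other controls well above them. Egr1 was not called (log2 −0.41, SE 0.19, edgeR adjusted p = 0.0865). Without control 1 it was called lower (log2 −0.62, edgeR adjusted p = 1.75e-05), with DESeq2 also (log2 −0.42, adjusted p = 0.0171), and by library totals it was called higher (log2 0.58, edgeR adjusted p = 0.0308). All its alternatives gave adjusted p between 1.75e-05 and 0.243.

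Control 1, the library on which Fosb and Egr1 turned, differed from the other controls in several members. Relative to the mean of the controls its log2 CPM were 1.13 for Fosb, −0.51 for Egr1, 0.39 for Jund and 0.30 for Junb. Control 3 stood at −0.44 for Jund and −0.34 for Junb. In the K5-RANKL libraries the deviations of the 9 tested members lay between −0.24 and 0.22. The summed acinar markers of control 1 were 101700 CPM, against 149399 and 154963 CPM in the other controls, and its adipocyte markers 573 CPM against 336 and 389 CPM. Their part in the values of control 1 was not tested.

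Ordered by CPM per kilobase, the controls ran Jund (61.0), Jun (16.5), Junb (10.8), Ier3 (9.62), Egr1 (6.43), Fos (3.85), Fosl2 (2.63), Atf3 (1.74), Fosb (0.222) and Fosl1 (0.0175). Among these neighbours only Junb and Ier3 overlapped in their libraries. In K5-RANKL the order was Jund (57.0), Junb (41.8), Jun (19.5), Ier3 (15.3), Fosl2 (11.05), Fos (6.61), Atf3 (6.11), Egr1 (4.84), Fosb (0.252) and Fosl1 (0.00742). There Atf3 overlapped with both Fos and Egr1. On this scale Junb passed Jun and Fosl2 passed Fos, and Egr1 went from the fifth place to the eighth.

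The bulk tissue changed its makeup too, and in bulk samples more cells of a type and more RNA per cell cannot be told apart. Over all tested genes, 34.2% were called higher and 32.1% lower. Leukocyte and macrophage markers (8 of 8 higher) summed to 332 to 413 CPM in controls and 1981 to 2086 CPM in K5-RANKL, led by Lyz2. Fibroblast markers (6 of 7 higher) summed to 575 to 776 and 2674 to 3133 CPM, led by Col3a1. Basal epithelial markers (6 of 6 higher), which include Krt5, whose promoter drives the activator, summed to 113 to 116 and 463 to 1013 CPM. Acinar markers (8 of 8 lower), led by Bpifa2, summed to 101700 to 154963 and 6425 to 9568 CPM, and duct markers (6 of 8 lower, 2 higher), led by Klk1, to 21699 to 23474 and 6517 to 8642 CPM. The part of these cell types in the changes of the members was not tested.

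Markers of other cell types were less abundant or moved less. Neutrophil markers (4 of 4 tested higher), led by Csf3r, summed to 2.39 to 4.69 CPM in controls and 12.1 to 14.4 CPM in K5-RANKL. T and NK cell markers (6 of 7 higher), led by Cd4, summed to 55.4 to 59.5 and 112.5 to 119.3 CPM. Endothelial markers, led by Pecam1, had 2 of 6 higher and 2 lower, at 125 to 147 and 146 to 152 CPM. These shares, 33.3% each, are near the 34.2% and 32.1% of all tested genes. B and plasma cell markers, led by Igj, had 1 of 6 higher and 1 lower, at 295 to 401 and 209 to 254 CPM. Skeletal muscle markers had 2 of 6 higher (33.3%, near the share of all tested genes) and 0 lower, at 16.1 to 91.6 and 119.4 to 186.8 CPM. Their most abundant gene, Myh4, was not called (edgeR adjusted p = 0.155). Adipocyte markers, led by Fabp4, had 1 of 6 lower, at 336 to 573 and 415 to 467 CPM. No listed marker in the table had under 3 counts in every library, and Ly6g and Trac were not analysed here.

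The K5-RANKL libraries differed in basal markers. K5-RANKL 2 held 463 CPM of basal markers and the others 1013 and 925 CPM. The same library held Fosl2 at 71.0, Junb at 76.1 and Atf3 at 14.6 CPM, and leukocyte and macrophage markers at 2081 CPM. This is 1 library of 3, and the part of basal cells in the values of these genes was not tested.

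Other basic leucine zipper factors, listed here as AP-1 partners, went both ways. The list is broad, and not each of its factors pairs with Fos or Jun proteins or shares their sites. Of 23 listed, 11 rose, 5 fell, 6 were not called and 1 was not tested, with a median log2 fold change of 0.26 against 0.01 for all genes. Among its tested genes 50% were higher and 22.7% lower, against 34.2% and 32.1% of all tested genes. Maff, a small Maf protein without a transactivation domain, rose by 2.35 (SE 0.17, edgeR adjusted p = 1.30e-09), from 2.20 ± 0.161 to 11.2 ± 1.17 CPM. Jdp2, a Jun dimerization protein that acts as a repressor, rose by 1.87 (SE 0.12). Batf, Batf2 and Batf3, partners of Jun proteins in immune cells, were all called higher, by 1.502, 2.005 and 1.328. Batf2 and Batf3 were low, with means of 0.257 and 0.901 CPM in controls and 1.09 and 2.25 CPM in K5-RANKL. Batf2 had only 2, 2 and 5 counts in controls 1, 2 and 3. Atf4 and Atf6, factors of the integrated stress and unfolded protein responses, fell by 0.79 and 0.76, and Nfil3 by 0.55, but by library totals these 3 were called higher.

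Of 45 other immediate early genes, 26 rose, 4 fell, 13 were not called and 2 were not tested, with a median of 0.63. This is 60.5% higher and 9.3% lower of those tested, against 34.2% and 32.1% of all tested genes. Dusp4, a phosphatase that switches off MAP kinases, stood at 7.74, 7.26 and 6.65 CPM in controls and at 49.98, 47.7 and 53.9 CPM in K5-RANKL. It rose by 2.81 (SE 0.10, edgeR adjusted p = 2.85e-13). Ctgf, a matricellular protein gene, rose by 2.82 (SE 0.10), from 18.9 ± 2.39 to 133 ± 14.5 CPM. Neither gene had overlapping groups.

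The relatives of Egr1 did not share its values. Egr2, a zinc finger factor of myeloid cells and nerve, stood at 1.20, 1.77 and 1.33 CPM in controls and at 7.96, 6.74 and 6.89 CPM in K5-RANKL. It rose 5.06-fold (log2 2.34, SE 0.20, edgeR adjusted p = 1.68e-08), and Egr3 1.55-fold (log2 0.63, SE 0.16, edgeR adjusted p = 0.00236). Egr4 had 0 counts in all libraries. For each Egr1 count there were 0.061, 0.0526 and 0.0399 counts of Egr2 in controls and 0.385, 0.316 and 0.298 in K5-RANKL, a 6.50-fold difference of the means that does not depend on the scaling.

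The orphan nuclear receptors Nr4a1 and Nr4a2, immediate early genes induced by cyclic AMP and calcium, went against the list. Nr4a1 stood at 76.7, 74.7 and 70.6 CPM in controls and at 25.1, 27.6 and 20.8 CPM in K5-RANKL. Nr4a2 stood at 16.9, 19.5 and 15.9 CPM in controls and at 4.56, 4.44 and 3.07 CPM in K5-RANKL. Both groups were far apart for both genes. Nr4a1 fell by 1.59 (SE 0.09, edgeR adjusted p = 1.50e-10) and Nr4a2 by 2.11 (SE 0.15, edgeR adjusted p = 1.24e-09). Both were also called lower by library totals, at −0.60 and −1.12. Nr4a3 was at 2.71 ± 0.264 and 2.67 ± 0.288 CPM (log2 −0.01, SE 0.21, edgeR adjusted p = 0.955), but by library totals it was called higher (log2 0.98, edgeR adjusted p = 0.000232). Trib1, a pseudokinase gene, fell by 0.83 and Dusp6, a phosphatase of ERK, by 0.32. By library totals Trib1 was not called and Dusp6 was called higher (log2 0.67).

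The kinases and regulators that act on AP-1 went both ways. Of 31 listed, 11 rose, 7 fell, 12 were not called and 1 was not tested, with a median of 0.06 and a range from −1.13 to 0.79. The shares of its tested genes, 36.7% higher and 23.3% lower, compare with 34.2% and 32.1% of all tested genes, so the share higher is near the background. Elk3 and Mkl1, cofactors of SRF, rose by 0.79 and 0.78, and Map3k8, a kinase of the ERK pathway, by 0.74. Traf6, the adaptor of RANK, rose by 0.53 (SE 0.08, edgeR adjusted p = 1.11e-05). Mapk9, encoding JNK2, fell by 1.13 (SE 0.08, edgeR adjusted p = 2.52e-09), from 127 ± 12.3 to 58.2 ± 4.004 CPM, but by library totals it was not called (log2 −0.13). Tab1, a TAK1 adaptor, and Mapk13, a p38 kinase, fell by 0.62 and 0.57, but by library totals they were called higher.

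Genes described elsewhere as AP-1 targets held the largest changes of the lists described here. Of 30, 22 rose, 3 fell, 0 were tested without a call and 5 were not tested, with a median of 3.05. Of those tested 88% were higher, against 34.2% of all tested genes. Spp1, encoding osteopontin, rose by 6.40 (SE 0.12) from 2.17 ± 0.358 to 183 ± 15.0 CPM. The gelatinase gene Mmp9 rose by 5.99 (SE 0.18), and Ctsk, the collagen-degrading cathepsin of osteoclasts, by 5.35 (SE 0.19). Spp1, Mmp9 and Ctsk are also products of osteoclasts and of macrophages. Leukocyte and macrophage markers rose (8 of 8), and no list of osteoclast markers was used. The part of these cells in the rises of the 3 genes was not tested. Nfatc1, the osteoclast factor that Fos controls there, rose by 1.19 (SE 0.08), from 18.9 ± 1.07 to 43.1 ± 0.262 CPM. Vegfa, Ccnd1 and Cd9 fell by 0.99, 0.35 and 0.30, but by library totals none was lower. Ccnd1 was no longer called once control 1, control 3 or K5-RANKL 1 was left out (edgeR adjusted p = 0.0827, 0.0603 and 0.0557), with adjusted p between 0.000161 and 0.0827 over all alternatives.

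**Figure D5:**
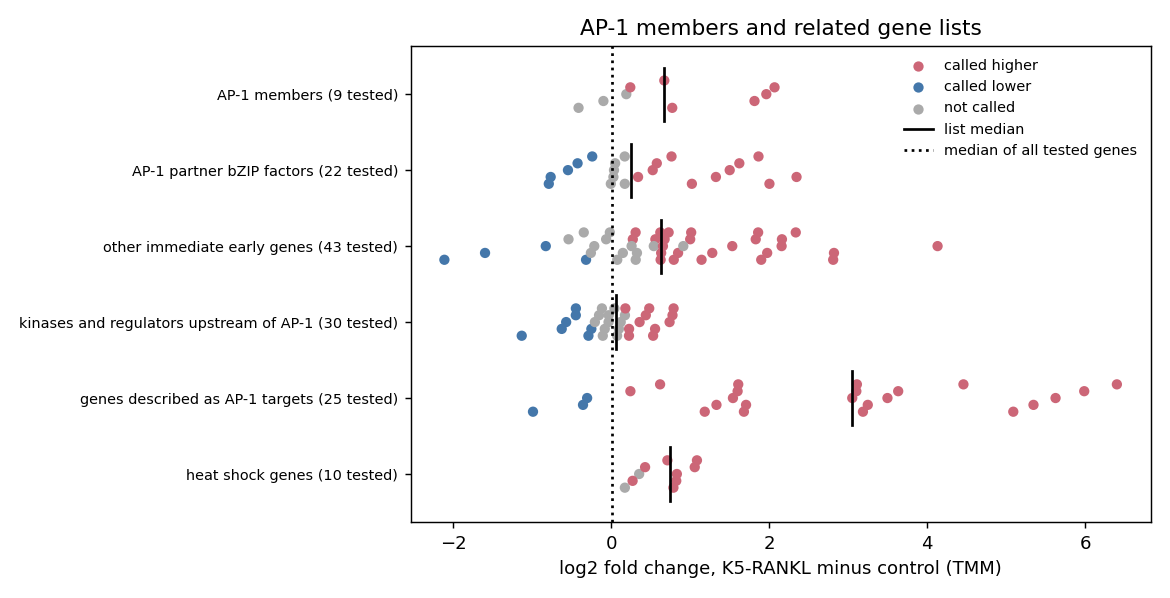
Log2 fold change (x axis, TMM, K5-RANKL minus control) of each tested gene in the list of members and in 5 related lists; red points were called higher, blue lower and grey not called, vertical lines are list medians and the dotted line is the median of all tested genes. The medians were 0.67 for the tested members, 0.06 for upstream kinases and regulators and 3.05 for genes described as targets; by library totals the blue points of all lists but Nr4a1 and Nr4a2 are not called lower.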

How the data were processed

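RNA was measured by poly(A) sequencing in 6 libraries, 3 control and 3 K5-RANKL, made with a stranded TruSeq kit from 250 ng of RNA per the labels' protocols. The authors deposited raw read counts per gene, aligned with STAR to mm10 per the submitters' processing notes; no source used here gives the counting tool, its strand setting or the annotation release. Groups follow the genotype label, and replicate numbers follow deposition order.

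Counts were filtered with filterByExpr (minimum count 10, 14044 genes left), scaled by TMM and fitted with edgeR (glmQLFit, robust; two-sided glmQLFTest), with Benjamini-Hochberg adjustment over all tested genes. Standard errors are the log2 fold change over the square root of F. The test was checked on simulated counts in which 200 genes changed around a shared profile. The simulation did not hold the shift in the most abundant genes seen here, so it cannot judge the scaling. Within groups, pairs of libraries differed by a chi-square of 6.26 to 38.3 per gene (at least 20 counts), above sampling noise. Control 1 stood apart, at 37 against control 2 and 38.3 against control 3. Control 2 against control 3 gave 6.26, and pairs of K5-RANKL libraries gave 12.5 to 23.1. Gene positions and exon lengths are from GENCODE vM21 (GRCm38, the assembly of mm10), matched by symbol. The versions used were edgeR 4.0.16, DESeq2 1.42.0, limma 3.58.1 and R 4.3.3.

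The members and gene lists were chosen with earlier results of these data known. Beyond the members, named genes are the up to 3 called genes with the highest and lowest fold change in each list (with 5 CPM or more on average in its higher group) and the most abundant marker of each cell type. The 5 genes most like Fos within groups were also named. Any further gene was picked with its values in view. An item that these rules take in is not reported here. Alternatives were 3 other scalings, TMM without the 20 most abundant genes, DESeq2, limma voom, 2 other filters, shares of raw counts, and leaving out each library.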

Additional observations from a re-analysis of the deposited data

How the results depend on the processing

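The calls of Fosl2, Junb, Atf3, Fos and Ier3 held in all 14 alternatives, with log2 fold changes of 2.00 to 3.07, 1.80 to 2.96, 1.73 to 2.81, 0.69 to 1.77 and 0.59 to 1.67; the highest of each came from library totals. Leaving out 1 library gave 5 to 7 members higher and 0 to 1 lower, and DESeq2 gave 1 lower. By library totals 11733 genes were higher and 698 lower, in place of 4799 and 4505. These genes with a negative fold change by TMM turned by library totals: Jund 0.90, Egr1 0.58, Nfil3 0.46, Atf6 0.23, Atf4 0.21, Trib1 0.17, Dusp6 0.67, Nr4a3 0.98, Mapk13 0.43, Tab1 0.38, Cd9 0.69, Ccnd1 0.65 and Vegfa 0.0098. By totals the counts higher and lower were 22 and 0 for factors listed as partners and 40 and 2 for other immediate early genes. They were 29 and 0 for upstream kinases and regulators, and 24 and 0 for described targets. Marker lists moved as well. Their counts became 6 and 0 for endothelial and for skeletal muscle, 7 and 0 for T and NK cell and for fibroblast markers. They became 5 and 0 for B and plasma cell, 4 and 0 for adipocyte, 3 and 4 for duct and 0 and 7 for acinar markers. Without control 1 or K5-RANKL 3, 3 factors listed as partners were lower in place of 5. Taken from raw counts, the share of Fosl2 rose by 17.35 and that of Fos changed by −15.00 percentage points, in place of 22.6 and −20.4, since that alternative does not divide by length; Fosl2 then led the family in controls too. Fosb, Batf2 and Batf3 were not tested with at least 50 counts required in 3 libraries. No paired analysis was possible because the labels give no replicate numbers. Fosb and Fosl1 are limited by their few counts.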

Other observations

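Heat shock genes, which respond to protein stress, were 8 of 10 higher and 0 lower, with a median log2 fold change of 0.75. This is 80% higher and 0% lower, against 34.2% and 32.1% of all tested genes. Also at an unadjusted p under 0.05, with DESeq2 or with limma voom, 0 were lower. By library totals all 10 were called higher, as were 83.5% of all tested genes. Dnajb1, a cochaperone gene, rose by 1.09 (SE 0.11, edgeR adjusted p = 2.35e-07), from 19.7 ± 2.06 to 41.7 ± 5.85 CPM (SD, n = 3 each). Hsp90aa1, the inducible cytosolic HSP90 gene, rose by 1.06 (SE 0.09) and the mitochondrial chaperonin gene Hspe1 by 0.83 (SE 0.11). The inducible Hsp70 genes Hspa1a and Hspa1b, nearly identical copies whose counts are uncertain, stood at 0.71 (SE 0.23, edgeR adjusted p = 0.0192) and 0.36 (SE 0.22, edgeR adjusted p = 0.2), and K5-RANKL 3 overlapped the controls for both. Leaving out control 2, control 3 or K5-RANKL 1 ended the call of Hspa1a (edgeR adjusted p = 0.0791, 0.0961 and 0.0522), and Hspa1b was called higher without K5-RANKL 3 (log2 0.55, edgeR adjusted p = 0.00115) and by library totals (log2 1.35). Over all alternatives adjusted p lay between 3.54e-07 and 0.0961 for Hspa1a and between 7.26e-06 and 0.468 for Hspa1b.

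Within groups, the log2 CPM of Fos, centred on each group's mean, was most like that of Serac1, Plekhm3, Lpar1, Impa2 and Ssh2 among 10213 genes, with Pearson correlations of 0.999, 0.998, 0.998, 0.997 and 0.992 over 6 libraries. The libraries share their scaling and the genes were picked from many, so these values are a description. Among tested members Egr1 stood at 0.82, Fosl2 at 0.66, Jun at 0.40 and Ier3 at 0.30. Atf3 stood at −0.14, Jund at −0.40, Junb at −0.58 and Fosb, with few counts, at −0.84.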
